A study of Mus musculus with 8 samples.

Results

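Laminins are trimeric proteins of the basement membrane, the sheet of matrix on which blood vessels rest, and each is built from an alpha, a beta and a gamma chain. The alpha 4 chain, encoded by Lama4, and the alpha 5 chain, encoded by Lama5, are the main alpha chains that endothelial cells lay down, and integrins on the endothelial surface bind them. In brain vessels the membrane is shared by endothelial cells and by the mural cells around them, the pericytes of capillaries and the smooth muscle cells of arteries.

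The comparison described here is that of Lama4-/- mice, which lack Lama4 (the labels name no cell type or Cre for the deletion), with the wild-type (WT) mice labelled as their control. Cortex cells of 8-week-old mice were profiled one by one, after perfusion with cold saline, and the brains of 3 mice were pooled per group. Neither strain nor sex is given. The 2 samples of each group belong to the same pool of mice, so the spread between them leaves out the spread between mice. The 2 Lama4-/- samples hold the same matrix and the same barcodes and were counted as 1 library, which leaves 3 distinct libraries of the 7 in the series. After filtering (at least 500 genes and under 15% mitochondrial UMIs, doublets removed), the 3 libraries held 15575 of the 47241 cells of the series: 5126 in the knockout, 5344 in WT 1 and 5105 in WT 2. UMIs are the unique molecular identifiers that count captured RNA molecules. With 1 library in the knockout there is no test and no p-value, and with 1 pool of mice per group a difference of genotype and one of preparation cannot be told apart. Every value is given per library, with exact Poisson or binomial 95% intervals that cover counting error only, and is read against the difference between the WT libraries.

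The deposited matrices held 41628663 UMIs in the knockout and 48314458 and 44352967 in WT 1 and WT 2. The median cell of the knockout had 5271.5 UMIs, fewer than the 6541 and 6421 of the WT libraries, while the median mitochondrial share lay between 4.84% and 4.88% in all 3. Among kept cells, the knockout shared 5 barcodes with WT 1 and 9 with WT 2, and the WT libraries shared 10. Counts of the WT libraries differed from each other by more than sampling noise (chi-square per degree of freedom 8.39 over 14874 genes). Xist was near 0 and Ddx3y, a Y-linked gene, lay between 111 and 118 CPM in endothelial-like cells of every library, so the pools were alike in these sex-linked genes. Markers of the choroid plexus, an epithelium of the brain ventricles, set the knockout library apart from the others, and their values are given below beside the results they touch. Cells were sorted into classes by marker genes and are called endothelial-like, microglia-like and so on. Levels are given as CPM, the UMIs of a gene divided by all UMIs of its class in that library and multiplied by 1000000, with class totals scaled by TMM, a trimmed mean of gene ratios.

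Lama4 RNA was almost absent from the Lama4-/- library in every class that expressed it in the WT. The gene lies on chromosome 10 at chr10:38965515-39110188, plus strand, on GRCm38. In endothelial-like cells it stood at 0.0588 against 46.8 and 45.2 CPM, from 1 UMI against 919 and 815, which is 0.128% of the WT level (95% interval 0.00323 to 0.712). Pericyte-like cells, where the WT level was highest of the classes compared, held 1.78 against 273 and 303 CPM, from 1 UMI against 194 and 209. Smooth muscle-like cells held 0 UMIs against 127 and 126, and a count of 0 allows up to 3.43% of the WT level (3 counts). In all cells together 2 UMIs of Lama4 were counted in the knockout, and the library matched its label in all these classes.

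Among the other laminin chains of endothelial-like cells Lama5 stood modestly higher, and no beta or gamma chain was called. Lama5 measured 74.7 against 62.6 and 64.3 CPM, 118% of the WT level (95% interval 110.0 to 126), with the knockout interval (70.7 to 78.9 CPM) apart from both WT intervals. Lama3, the alpha 3 chain of adhesion laminins, measured 20.05 against 14.2 and 16.9 CPM or 129% of the WT level (95% interval 113 to 148), but its knockout interval overlapped that of WT 2. Lamb2 and Lamc1, the beta 2 and gamma 1 chains that partner alpha 4 and alpha 5, stood at 205 against 208 and 209 CPM and 67.6 against 61.99 and 64.8 CPM. For Lamb2 this was 98.2% of the WT level (95% interval 94.3 to 102) and for Lamc1 107% of the WT level (95% interval 99.4 to 115).

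In smooth muscle-like cells Lama5 was not higher, at 146 against 157 and 157 CPM, 93.2% of the WT level (95% interval 81.5 to 106). In pericyte-like cells Lama5 had 7 UMIs against 12 and 7, 91.7% of the WT level with an interval of 32.6 to 228%, too few to show a direction. There Lama2, Lamb1, Lamb2, Lamc1 and Lamc3 lay at 84.4% to 92.0% of the WT level, each with an interval that included 100%. Whether endothelial-like and smooth muscle-like cells differ in their Lama5 ratio was not tested. In fibroblast-like cells, few in number (48 against 42 and 32 cells), Lama2 measured 157 against 83.8 and 91.4 CPM, Lamb1 81.1 against 35.5 and 21.6 CPM and Lamc3 73.99 against 25.8 and 9.62 CPM, all with the knockout interval above both WT intervals. For Lamc3 the WT libraries also differed from each other, by a log2 ratio of 1.38.

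**Figure D1:**
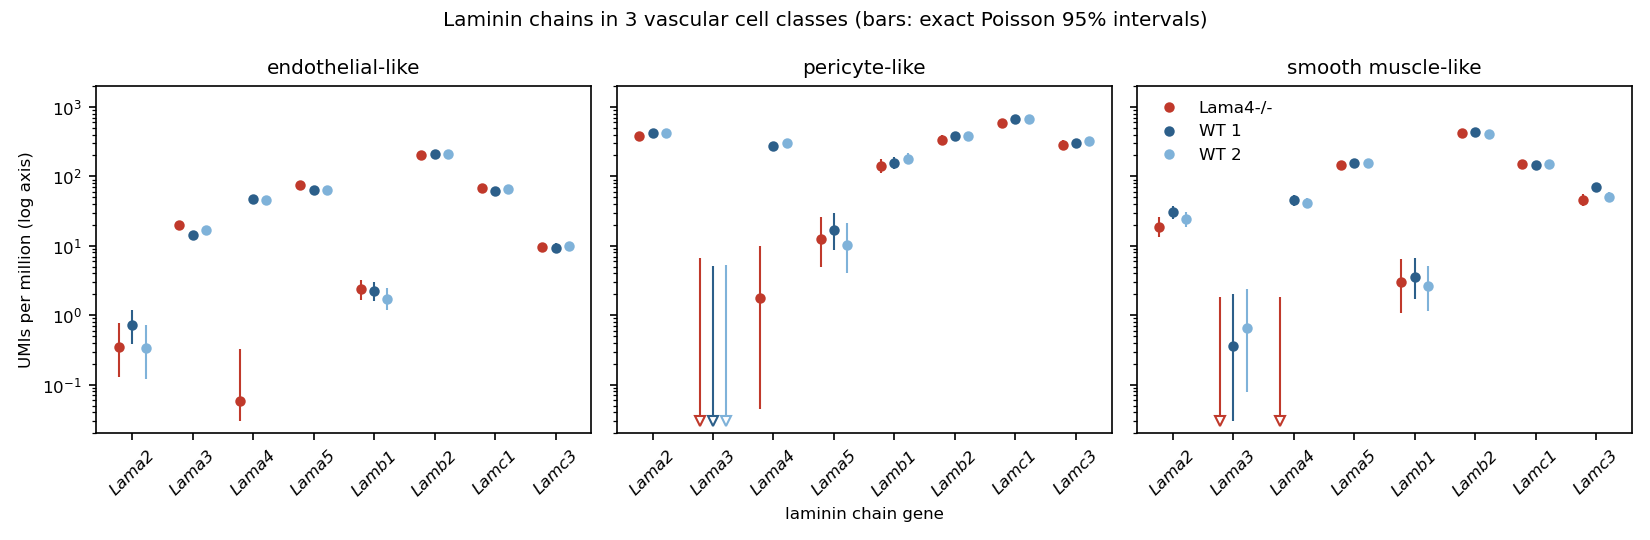
Levels of 8 laminin chain genes in CPM (log axis) in endothelial-like, pericyte-like and smooth muscle-like cells, 1 point per library with its exact Poisson 95% interval, intervals cut at the foot of the axis. Open triangles mark a count of 0. Lama4 drops to 0 or 1 UMI in the knockout, and Lama5 of endothelial-like cells stands at 74.7 CPM against 62.6 and 64.3.

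Inside the endothelial-like class, 4 clusters with at least 100 cells in every library held 93.8% of the knockout cells and 91.9% and 92.2% of the WT cells. Lama5 was above both WT libraries in each of them on unscaled totals. It measured 118 against 105 and 90.1 CPM in the cluster led by the arterial genes Gkn3 and Fbln5 and 38.9 against 36.5 and 31.1 CPM in the cluster led by the venous genes Lrg1 and Lcn2. In the largest cluster, led by capillary genes, it measured 67.6 against 50.1 and 61.3 CPM. None of these knockout intervals lay apart from both WT intervals. Lama3 was concentrated in the arterial cluster, at 77.2 against 46.1 and 56.4 CPM, where the knockout interval did lie above both.

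To describe all genes, 2 rules of size were used. A gene was past the fold when its log2 ratio (pseudocount 0.5 CPM) reached 0.5 against each WT library in the same direction and the knockout interval lay apart from both WT intervals, at a mean level of 20 CPM or more (50 CPM in the 3 smaller classes). For gene lists a member was called higher or lower when its knockout interval lay apart from both WT intervals, with no fold asked, at 5 CPM or more. In endothelial-like cells 14 of 6412 genes were past the fold higher (0.218%) and 35 lower (0.546%). On unscaled class totals the counts were 15 and 18. Taken in pairs, the knockout differed from WT 1 by that fold in 110 genes and from WT 2 in 60, and the WT libraries from each other in 8. In microglia-like cells 19 of 5525 genes were higher (0.344%) and 64 lower (1.16%), or 24 and 44 on unscaled totals, and the pairs gave 163, 116 and 10. Smooth muscle-like cells had 9 of 2934 higher (0.307%) and 41 lower (1.4%), with 128, 74 and 13 in the pairs. Pericyte-like cells had 15 of 3703 higher (0.405%) and 25 lower (0.675%), with 100, 78 and 26 in the pairs. Astrocyte-like cells had 11 of 3504 higher (0.314%) and 34 lower (0.97%), while the WT libraries differed from each other in 121 genes, about as many as the 128 and 153 by which the knockout differed from them singly. The knockout thus stood further from the WT libraries than they stood from each other in endothelial-like, microglia-like, smooth muscle-like and pericyte-like cells, and no further in astrocyte-like cells.

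Several genes of arterial endothelium were higher in the knockout. Of 20 arterial list genes in endothelial-like cells, 6 were higher and 0 lower, where 3.19% of all genes at 5 CPM were higher and 7.6% lower. The median log2 ratio of the list to the mean of the WT libraries was 0.14 against 0.0025 over all genes, and -0.12 for WT 1 against WT 2, so the WT libraries also differed in this list. Without WT 2 the number of higher members was 12. Gja4, which encodes the gap junction protein connexin 37 of arterial endothelium (chr4:127311421-127314039, minus strand), measured 64.7 CPM in the knockout against 35.4 in WT 1 and 39.6 in WT 2, a log2 ratio of 0.78. Gkn3, a marker of brain arterial endothelium, measured 572 against 367 and 441 CPM. Edn1, encoding the constrictor peptide endothelin 1, measured 353 against 267 and 273 CPM, and the netrin receptor gene Unc5b 81.9 against 66.2 and 71.1 CPM. Mgp and Tm4sf1 were higher by smaller margins, at 1368 against 1166 and 1255 CPM and 1593 against 1449 and 1550.2 CPM. The other 14 members, among them Sox17, Bmx, Efnb2 and the connexin 40 gene Gja5, did not lie apart from both WT libraries.

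Most of the Gja4 and Gkn3 signal came from cells of the arterial cluster, and it was higher inside that cluster as well. There Gja4 measured 318 against 183 and 167 CPM, Gkn3 2951 against 2006 and 2022 CPM, Unc5b 176 against 133 and 132 CPM and Edn1 809 against 715 and 638 CPM, each with the knockout interval above both. Edn1 was higher in all 4 clusters, for example 183 against 139 and 137 CPM in the capillary one and at 251.2 against 144.0 and 134.1 CPM in the venous one. These clusters were drawn with the same genes, so their levels describe where the counts lie. The share of endothelial-like cells with at least 3 arterial list genes, after thinning every cell to 2000 UMIs, was 50.2% (48.1 to 52.3) in the knockout and 46.3% (44.2 to 48.4) and 46.8% (44.7 to 49.0) in the WT libraries, with overlapping intervals. The thinning left out 198, 141 and 135 shallower cells, and at full depth the shares were 77.8%, 77.7% and 77.2%. Microglia-like cells, which should lack these genes, reached at most 0.178%.

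Capillary genes differed in both directions, in a balance that depended on the scaling, and few venous genes were called. Of 14 capillary list genes, 2 were higher and 6 lower, with a median of -0.02, but on unscaled totals, which raise the median of all genes from 0.0025 to 0.05, 5 were higher and 4 lower and the list median was 0.03. The basement membrane protein gene Hmcn1 measured 186 against 241 and 217 CPM and the carbonic anhydrase gene Car4 605 against 743 and 671 CPM. Of 13 measured venous genes, Ackr1 was higher and Lcn2 and Tmsb10 were lower. Both lists are read against the 3.19% of all genes at 5 CPM that were higher and the 7.6% that were lower. The few venous calls lie close to those shares. Ackr1, the atypical chemokine receptor of venules (chr1:173331886-173333750, minus strand), had the largest log2 ratio among the higher genes of 20 CPM or more that were not set aside, 1.23, from 38.2 against 20.02 and 12.1 CPM. Its WT libraries differed by a log2 ratio of 0.70. Its UMIs came from 69, 42 and 48 cells, and 644 of the 650 UMIs of the knockout lay in the venous cluster, where it measured 187 against 87.7 and 55.2 CPM.

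**Figure D2:**
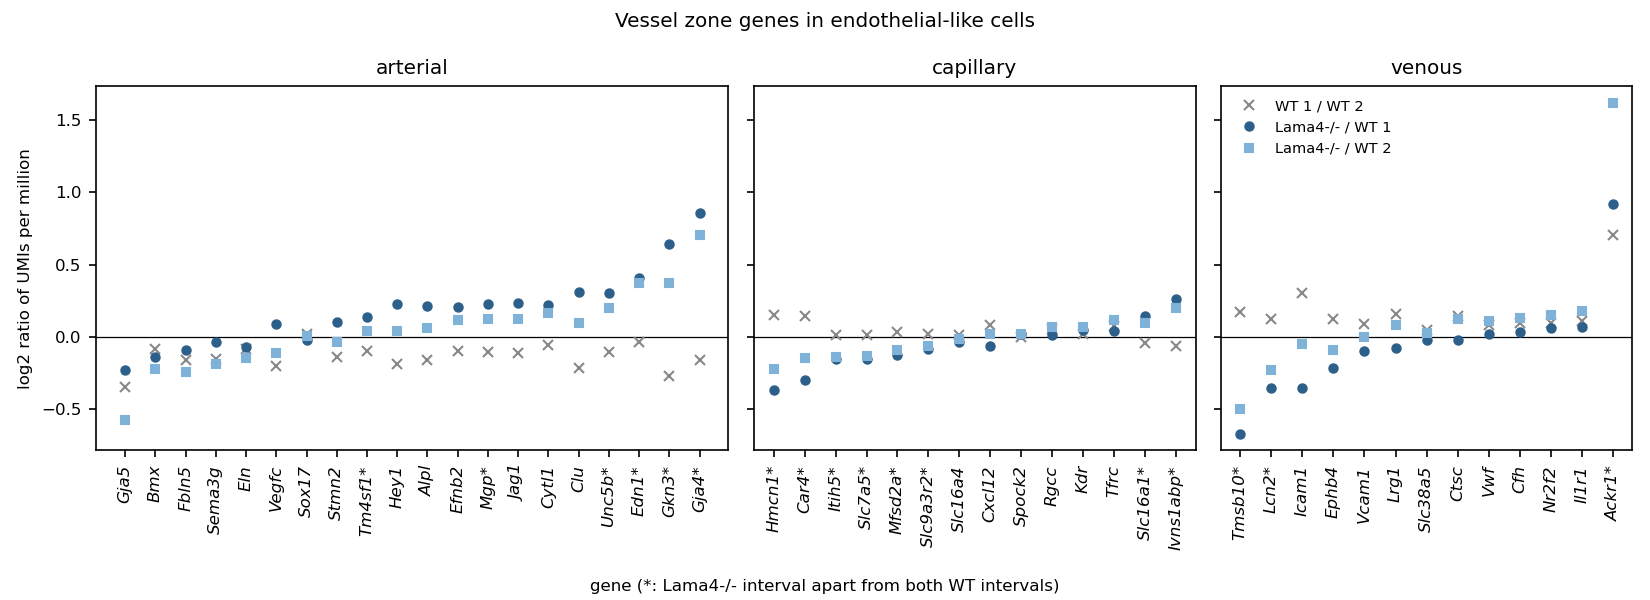
Log2 ratios of CPM in endothelial-like cells for the arterial, capillary and venous list genes at 5 CPM or more. Circles and squares give the knockout against WT 1 and WT 2, crosses WT 1 against WT 2, and an asterisk marks genes whose knockout interval is apart from both WT intervals. Gja4, Gkn3 and Edn1 lie at the upper end of the arterial list, and Ackr1 stands far above the other venous genes.

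Other endothelial genes past the fold had varied roles. Egr3, an immediate early transcription factor gene induced by VEGF, measured 43.3 against 20.1 and 22.8 CPM. Tgfb2, encoding the ligand TGF-beta 2, measured 195 against 126 and 132 CPM, and Hhex, a homeobox gene of endothelium, 76.2 against 50.9 and 52.9 CPM. Pmaip1, Lypd1, Hist1h1c and Cirbp were also higher, with log2 ratios of 0.71, 0.68, 0.60 and 0.59. Among the lower genes, Zbtb16, a glucocorticoid-responsive zinc finger gene, measured 51.7 against 87.9 and 96.8 CPM and the long noncoding RNA gene Gm9946 27.99 against 51.3 and 55.8 CPM. The remaining named lower genes were AC160336.1, a noncoding gene, and the short transcripts mt-Nd3, Rps28, Rpl38, Rps29, Rps27 and Rpl37. Genes over 10 times more abundant in another class were set aside as possible free RNA (Plpp3, Errfi1, Enpp2, Ttr and Mbp among the higher, S100a6, Hbb-bs and Nov among the lower) and are not read as endothelial. Nov, however, also leads an endothelial-like cluster of 25 knockout cells and 40 and 26 WT cells, and the source of its RNA was not tested.

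Within the Notch list, which carries signals between neighbouring endothelial cells, the ligand gene Dll4 was higher (105 against 78.7 and 84.4 CPM), the receptor gene Notch1 lower and the target gene Hes1 lower (188 against 291 and 255 CPM). Hes1 was also lower in microglia-like (192 against 349 and 296 CPM) and smooth muscle-like cells (387 against 459 and 480.1 CPM). Klf2, the shear-responsive transcription factor gene, measured 5076 against 4138 and 4079 CPM, while Klf4 and Plxnd1 of the same list were lower. Of the tight and adherens junction list, the claudin 5 gene Cldn5 was higher (6646 against 6023 and 6314 CPM), Lsr and Esam lower, and the other 14 of 17 measured genes were not called. The VEGF list gave 2 higher genes, Esm1 and Pdgfb (the ligand that recruits pericytes, 338 against 307 and 317 CPM), and 2 lower genes, Ptprb and the receptor gene Flt4 (60.2 against 69.5 and 71.4 CPM). Esm1 also leads, with Plvap, a small cluster whose cell numbers are given below. Of 19 interferon genes 2 were higher, Iigp1 (111 against 87.2 and 85.4 CPM) and Ifit1 (196 against 176 and 178 CPM), and Ifitm3 was lower. These small differences depend on the scaling: on unscaled totals the VEGF list had 5 higher and 0 lower genes, the interferon list 7 and 0, the Notch list 2 and 1 and the junction list 2 and 1. With TMM scaling 3.19% of all genes at 5 CPM were higher and 7.6% lower, and the calls in these lists are read against those shares.

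Further endothelial lists showed few called genes. In the transcytosis list Plvap, the fenestral diaphragm gene, was higher (26.2 against 9.98 and 3.77 CPM), while Cavin2, Pltp and Insr were lower. Plvap was read in 26 cells in the knockout and 14 and 9 in the WT libraries. A small endothelial-like cluster led by Plvap and Esm1 held 12 cells in the knockout and 3 and 2 in the WT libraries. Choroid plexus-like cells numbered 115 in the knockout against 27 and 25, and a link between these numbers was not tested. In the leukocyte adhesion list Ackr1 was higher and Icam2 lower (314 against 335 and 343 CPM) of 12 genes, and the TGF-beta list gave only the inhibitor gene Smad7 as lower (185 against 198 and 215 CPM), of 15. In the MHC class I list H2-Q4 and H2-Q7 were higher and B2m lower. Immediate early genes split, with 5 of 14 higher, among them Egr1 (238 against 199.9 and 187 CPM) and Nr4a1, and 6 lower, among them Fos (872 against 927 and 903 CPM) and Atf3 (255 against 319 and 305 CPM). The shares of all genes at 5 CPM, 3.19% higher and 7.6% lower, apply to these lists too, and 1 lower gene of 15 is near that share. The scaling matters here as well: on unscaled totals the TGF-beta list had 2 higher (Id1 and Id3) and 0 lower genes, the transcytosis list 2 and 1, the leukocyte adhesion list 2 and 0, and the immediate early list 6 and 3, with Smad7, Cavin2, Pltp, Icam2 and Fos no longer called.

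Heat shock genes were lower in endothelial-like, microglia-like and smooth muscle-like cells of the knockout, with median log2 ratios of -0.28, -0.24 and -0.28 over the list. These genes encode the chaperones that cells make when proteins unfold, and they are switched on by heat shock factors that bind inverted repeats of GAA in their promoters. In endothelial-like cells 11 of 12 list genes were lower and 0 higher, where 7.6% of all genes were lower, and the WT libraries differed by a median of -0.01. On unscaled totals 9 were lower and 0 higher, with Hspd1 and Hsp90ab1 no longer called. Hspa1a, an inducible HSP70 gene, measured 1944 CPM in the knockout against 2864 in WT 1 and 2962 in WT 2. Hsph1, encoding HSP110, measured 57.7 against 91.5 and 92.3 CPM, and Hsp90aa1, encoding inducible HSP90, 599 against 805 and 825 CPM. Hspa8, the constitutive HSP70, measured 1779.6 against 2302 and 2285 CPM. Hspa1a and Hspa1b are near-identical copies, so how reads were divided between them is uncertain; Hspa1b was lower too (1527 against 1972 and 1977 CPM). Only Bag3, a co-chaperone gene, was not called in these cells.

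The lower level of Hspa1a held in each of the 4 endothelial clusters on unscaled totals, from 1291 against 2282 and 2249.9 CPM in the capillary cluster to 2707 against 3242 and 3204 CPM in the venous one. Hspa1a was also lower in microglia-like (5748 against 6739 and 6751 CPM) and smooth muscle-like cells (1763 against 2446 and 2467 CPM). In pericyte-like and astrocyte-like cells it measured 263 against 468 and 556 CPM and 141 against 264 and 184 CPM, but there it falls under the rule for possible free RNA and is not read as their own. Of the 12 genes, 8 were lower in microglia-like cells, 6 in smooth muscle-like, 3 in pericyte-like and 1 in astrocyte-like cells, where 5.41%, 2.39%, 0.543% and 0.917% of all genes were lower. The list medians were -0.09 in pericyte-like and -0.06 in astrocyte-like cells, where Hspa1b and Hspa1a of the 3 pericyte genes, and Hspa1a as the 1 astrocyte gene, fall under the free RNA rule. Hsp90ab1 was higher in smooth muscle-like cells, at 1407 against 1283 and 1276 CPM.

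The promoters of the list genes were searched for the paired heat shock repeat GAANNTTC, which reads the same on both strands. The 250 bases before the start site were read. Of the 9 list genes found in the RefSeq table (GRCm38.p6), 6 held it, against 7.73% of the 27025 genes in that table. The list was written as heat shock genes, so this share describes the list and cannot bear on the difference in the knockout. Hspd1 and Hspe1 share 1 such stretch between their opposed starts, and those of Hspa1a and Hspa1b have the same letters. The stretches of 4 genes called lower are shown because they carry the repeat, with the matches in capitals.
Hspa1a, chr17:34972233-34972280, minus strand: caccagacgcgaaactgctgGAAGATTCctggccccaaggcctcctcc
Hspb1, chr5:135887782-135887849, plus strand: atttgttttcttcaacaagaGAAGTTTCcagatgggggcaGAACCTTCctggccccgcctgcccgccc
Hspe1, chr1:55088044-55088091, plus strand: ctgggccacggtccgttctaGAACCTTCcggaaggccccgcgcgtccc
Dnaja1, chr4:40722324-40722371, plus strand: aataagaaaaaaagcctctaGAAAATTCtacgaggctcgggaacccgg
The Hspa1a stretch runs from position -124 to -77, counted from the start site. A match describes letters and does not show that a factor binds there.

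Genes of transport across the blood-brain barrier were slightly lower. Of 16 transporter list genes 9 were lower and 2 higher, where 7.6% of all genes were lower and 3.19% higher, with a median of -0.12 against 0.01 between the WT libraries. Slc2a1, the glucose transporter gene GLUT1, measured 3452 against 3918 and 3829 CPM, and Abcg2, a drug efflux pump gene, 771 against 849.8 and 833 CPM. Slc19a3, a thiamine transporter gene, and Lrp8, the apolipoprotein E receptor 2 gene, had the largest differences, at 73.6 against 93.1 and 85.9 CPM and 144 against 171 and 172 CPM. The organic anion carrier gene Slco1a4 (1945 against 1831 and 1840.2 CPM) and Slc39a10 were the 2 higher ones, and none of the 16 passed the fold. Across alternative settings the number of lower transporters ranged from 6 to 12, and on unscaled totals it was 6 with 3 higher.

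Few genes of matrix attachment were called, read against the 3.19% of all genes that were higher and the 7.6% that were lower. Of 13 laminin receptor genes, the integrin genes Itga6 and Itgb1, whose products pair as a laminin receptor, were lower, at 501 against 569 and 566 CPM and 340.2 against 383 and 374 CPM, and Rpsa was higher. Itga3 was not called (21.8 against 27.5 and 24.1 CPM), nor was the dystroglycan gene Dag1. In the focal adhesion list 4 of 16 were lower, namely Actn4 (299 against 381 and 356 CPM), Fermt2 (569.6 against 663 and 659.7 CPM), Tns1 and Tns2, and 0 were higher. Of 13 other basement membrane genes 2 were lower, Sparc (1560.1 against 1700.2 and 1704 CPM) and Col4a2, while the collagen IV chain gene Col4a1 measured 572 against 575 and 575 CPM. YAP and TAZ targets gave 1 higher gene, Cyr61 (237 against 188 and 218 CPM), and 1 lower, Lats2. Of the barrier Wnt list 4 were lower and 0 higher: Sox7 (43.98 against 58.01 and 55.5 CPM), Adgra2, Reck and Lrp6, of which Adgra2 and Reck encode the receptor complex for Wnt7 on brain endothelium. On unscaled totals 2 genes of that list were higher and 2 lower, the YAP and TAZ targets had 2 higher (Cyr61 and Ctgf) and 0 lower, and the basement membrane list had 2 higher (Sparcl1 and Mmrn2) and 1 lower, with Col4a2 no longer called.

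**Figure D3:**
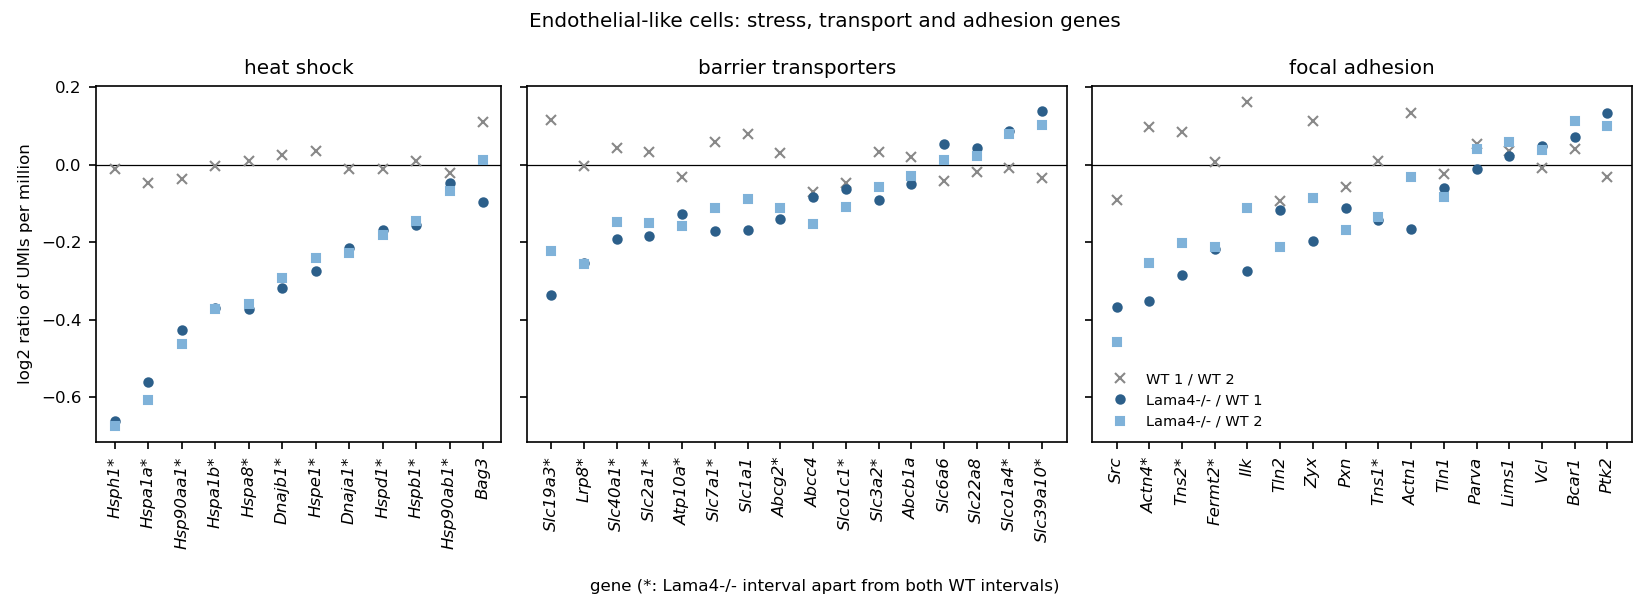
Log2 ratios of CPM in endothelial-like cells for the heat shock, barrier transporter and focal adhesion lists, drawn with circles and squares for the knockout against WT 1 and WT 2 and crosses for WT 1 against WT 2. In the heat shock list 11 of 12 genes lie below 0 against both WT libraries and the crosses stay near 0. The transporter list lies mostly below 0, by smaller margins.

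Microglia-like cells, the resident macrophages of brain tissue, showed a group of interferon-induced genes that was higher in the knockout. Gbp2, encoding an interferon-induced GTPase (chromosome 3), measured 39.2 CPM in the knockout against 5.48 in WT 1 and 5.96 in WT 2, a log2 ratio of 2.67. Igtp, another induced GTPase gene, measured 41.2 against 21.8 and 20.04 CPM. Tap1, the peptide transporter gene of antigen presentation, measured 42.7 against 26.9 and 26.2 CPM. Of 12 interferon list genes measured in this class 6 were higher and 0 lower, and of 13 MHC class I genes 6 were higher and 0 lower, where 2.35% of all genes were higher. The lists had been written for endothelial-like cells.

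Part of this signal sat in few cells, to a degree that differed by gene. Of the microglia-like cells, 56 of 1133 in the knockout held at least 20 UMIs of 6 MHC class II genes (markers of antigen-presenting cells), which is 4.94% (3.75 to 6.37), against 0 of 1399 and 1 of 1353 in the WT libraries. After thinning to 2000 UMIs, at least 3 of the 6 genes were seen in 5.51% (4.25 to 7.01) of the knockout cells and 0.576% and 0.523% of the WT cells, and at full depth the shares were 12.004%, 9.22% and 8.06%, with the intervals of the knockout and WT 1 overlapping. Endothelial-like cells reached at most 0.135% after thinning. A cluster of 44 knockout and 0 WT cells, led by MHC class II genes, met all 9 microglial markers, Tmem119 and P2ry12 included. The 6 genes (Cd74, H2-Aa, H2-Ab1, H2-Eb1, H2-DMa and H2-DMb1) and this count were chosen after the data were seen. In the class as a whole H2-Eb1 measured 101 against 0.673 and 0.616 CPM and Cd74, the invariant chain gene, 365 against 37.03 and 32.1 CPM. Both fall under the rule for possible free RNA, as they reached 6812 and 16320 CPM in monocyte or dendritic-like cells. That rule uses the level over the whole class. The 56 knockout cells alone held 695 of its 718 H2-Eb1 UMIs and 2378 of its 2596 Cd74 UMIs. Their levels in those cells were 1738 and 5947 CPM on unscaled totals.

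The MHC class II cells of the knockout held 686 of its 709 H2-Aa UMIs and 190 of its 279 Gbp2 UMIs. For Igtp and Tap1 they held the smaller part, 65 of 293 and 66 of 304 UMIs. In the other microglia-like cells, on unscaled totals, Gbp2 still measured 13.5 against 5.41 and 5.92 CPM, Igtp 34.7 against 21.5 and 19.9 CPM and Tap1 36.2 against 26.6 and 25.8 CPM, each with the knockout interval above both. Cd74 of the knockout lay between the WT libraries in those cells, at 33.2 against 36.5 and 27.4 CPM. H2-Eb1 measured 3.50 against 0.664 and 0.613 CPM there, under the 5 CPM minimum, with the knockout interval above both. H2-Aa (3.50 against 1.23 and 1.33 CPM) and H2-Ab1 (12.3 against 8.44 and 7.46 CPM) were also higher. The knockout interval overlapped that of WT 2 for H2-Aa and that of WT 1 for H2-Ab1. Ciita, which drives MHC class II transcription, gave 31 of its 38 knockout UMIs in the MHC class II cells, against 2 and 3 UMIs in all WT microglia-like cells. Ifng itself was read almost only in T or NK-like cells (29 against 26 and 25 cells), with 54 UMIs in the knockout and 129 and 73 in the WT libraries.

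The promoters of 7 of these genes (Gbp2, Igtp, Tap1, Cd74, H2-Aa, H2-Ab1 and H2-Eb1, chosen after their values were seen) were searched on both strands for the gamma-activated site TTCNNNGAA and for the interferon-stimulated response element, written as GAAA, 2 free bases and GAAA, in the 250 bases before the start. Of the 5 found in the table, 1 held the first (8.13% of genes do) and 2 held the second (3.46% of genes do). The stretches are shown for Gbp2 and Igtp, which held a match and were higher even outside the MHC class II cells, with the match in capitals.
Gbp2, chr3:142620584-142620633, plus strand: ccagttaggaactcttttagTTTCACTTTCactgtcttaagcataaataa
Igtp, chr11:58199502-58199551, plus strand: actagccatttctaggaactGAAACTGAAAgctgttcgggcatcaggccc
Igtp, chr11:58199491-58199539, plus strand: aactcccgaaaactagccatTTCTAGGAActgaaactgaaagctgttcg
The Igtp stretches overlap, so its matches lie side by side. The Gbp2 match lies on the opposite strand.

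Genes of resting microglia were higher and those of acute activation lower. Of 18 homeostatic list genes 10 were higher and 1 lower, where 2.35% of all genes were higher and 5.41% lower, with a median log2 ratio of 0.10 and -0.01 between the WT libraries. Tmem119 and the purinergic receptor gene P2ry12, both markers of resident microglia, measured 1642 against 1417 and 1437 CPM and 2555 against 2364 and 2375 CPM. P2ry13 and Gpr34 measured 457 against 377 and 366 CPM and 1576 against 1362 and 1371 CPM. The activation list held 8 lower and 5 higher of 18 measured genes, read against the same shares. The 5 higher were the MHC class II genes H2-Aa, H2-Ab1, H2-Eb1 and Cd74 together with the lipoprotein gene Apoe (996 against 794 and 713 CPM). All 5 fall under the rule for possible free RNA. Apoe is over 10 times more abundant in perivascular macrophage-like cells, and the MHC class II genes in monocyte or dendritic-like cells. The rule uses class-wide levels, and most knockout UMIs of these MHC class II genes lay in the 56 cells described above. Among the lower members past the fold, Cxcl2 falls under that rule too. Without the cells of 20 or more MHC class II UMIs the number of higher genes was 1, and the number of lower genes was 8 to 9 over all settings.

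The lower activation genes were cytokines and the NF-kappaB circuit. Il1a, encoding interleukin 1 alpha, measured 145 CPM in the knockout against 227 in WT 1 and 227 in WT 2. The chemokine genes Ccl3 and Ccl4 measured 2578 against 3529.7 and 3549.9 CPM and 4742 against 6115 and 6129 CPM, Cd83 1133 against 1441 and 1465 CPM and Nfkbiz, an inducible NF-kappaB cofactor gene, 175 against 281 and 271 CPM. Tnf was lower by less (239 against 271 and 271 CPM), and Il1b was not called. Among genes past the fold, Klf10 (49.2 against 101 and 91.8 CPM), a TGF-beta-induced repressor gene, and Prdm1 (15.5 against 29.6 and 27.8 CPM), which encodes BLIMP1, were also lower, as was Bag3 (34.8 against 68.2 and 54.9 CPM). The adrenergic receptor gene Adrb1 (93.02 against 57.5 and 58.1 CPM) was among the higher genes outside the interferon group.

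**Figure D4:**
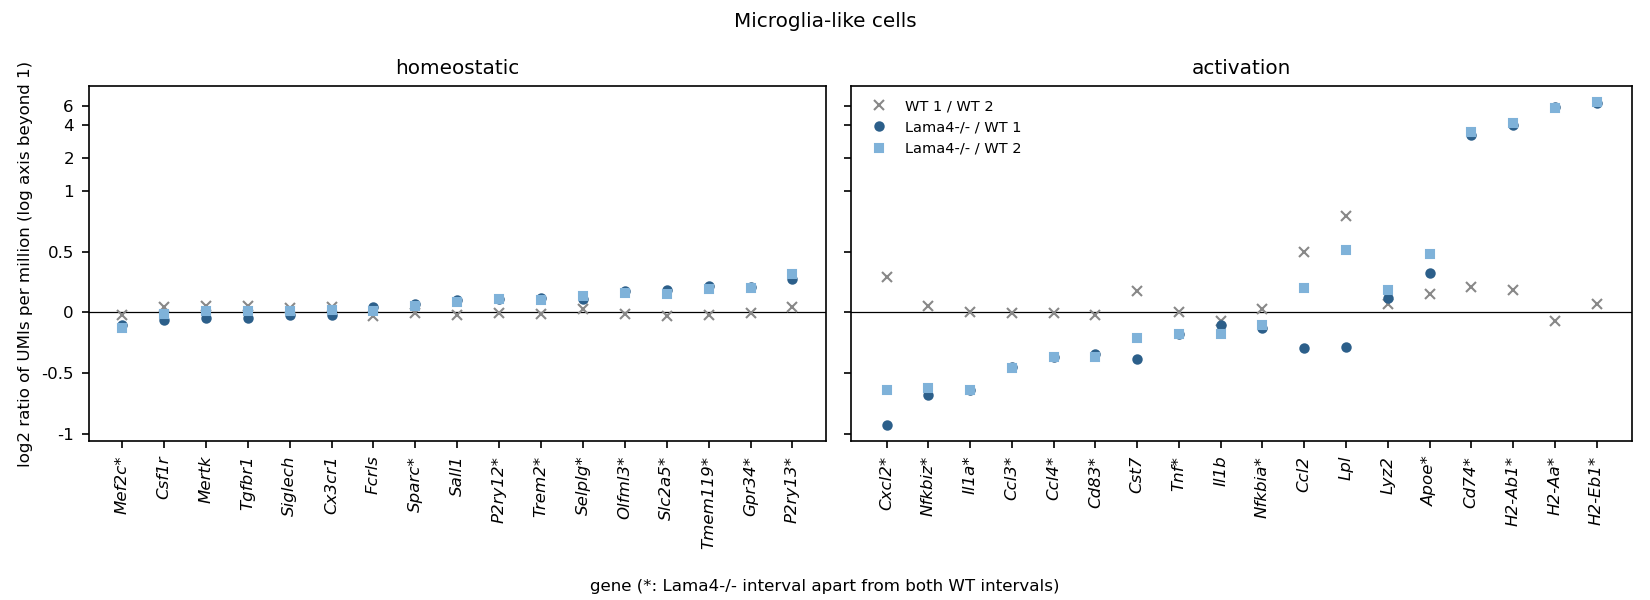
Log2 ratios of CPM in microglia-like cells for the homeostatic and activation lists (linear to 1, log axis beyond), with the same symbols as for the endothelial lists. P2ry13 lies highest among the homeostatic genes drawn, of which 1 list member is left out, Il1a, Ccl3 and Ccl4 lie below 0, and the MHC class II genes stand above 2.

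In smooth muscle-like cells genes of the contractile apparatus were higher. Of 18 contractile list genes 8 were higher and 1 lower, where 0.793% of all genes were higher, with a median log2 ratio of 0.19. Smooth muscle actin (Acta2) measured 18124 against 15555 and 15626 CPM, transgelin (Tagln) 13003 against 11003 and 10958 CPM and phospholamban (Pln) 1477 against 1107 and 1191 CPM. Crip1, a short transcript, was the lower one (4869 against 7356 and 6569 CPM). The make-up of the class differed as well: the cluster high in Rgs5, a regulator of G protein signalling, held 69 cells in the knockout and 138 and 121 in the WT libraries, and the Acta2-led cluster 191 against 198 and 227. Rgs5 over the class measured 2874 against 4762 and 4147 CPM. Inside the Acta2-led cluster alone, on unscaled totals, Acta2 measured 20169.5 against 17883 and 17670.2 CPM and Rgs5 1079 against 1276 and 1332 CPM, still apart from both WT libraries. There 6 contractile genes were higher, and 5 of the genes named in this class lost their call, among them Cnn1, Pi15, Inhba and Car4. With doublets kept 5 contractile genes were higher, and with a stricter cell filter 4.

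Among single genes of smooth muscle-like cells, Mt1, a metal-binding metallothionein gene, was lower at 739.6 against 1641 and 1569.7 CPM, and it was lower too in endothelial-like, microglia-like and astrocyte-like cells. Car4 (64.5 against 151 and 114 CPM), Ncapd3 (82.8 against 167 and 157 CPM) and the short transcript Rps28 completed the named lower genes. The peptidase inhibitor gene Pi15 (76.4 against 48.7 and 47.6 CPM), Dtna and Inhba (78.4 against 50.5 and 49.3 CPM), which encodes the activin A subunit, were among the higher genes.

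Pericyte-like cells showed lower levels of several identity genes. Of 18 list genes 5 were lower and 0 higher, where 0.543% of all genes were lower and 0.326% higher, with a median of -0.11 against -0.02 over all genes. On unscaled totals the same 5 were lower and 1 list gene, Vtn, was higher. The potassium channel genes Kcnj8 and Abcc9 measured 1349 against 1577 and 1638 CPM and 1013 against 1269 and 1217 CPM, Higd1b 1104 against 1399.5 and 1491 CPM and the PDGF receptor gene Pdgfrb 2082 against 2379 and 2505 CPM. Of genes past the fold, the immediate early genes Nr4a1 (192 against 75.9 and 79.9 CPM) and Egr1 (267 against 142 and 100.2 CPM) and the matrix gene Ctgf (88.9 against 36.5 and 36.3 CPM) were higher; these 3 fall outside the naming rule and were chosen after their values were seen. Besides Lama4, the named lower genes Mrpl52, mt-Atp8 and Chd2 measured 55.1 against 125 and 102 CPM, 123 against 264 and 199 CPM and 90.7 against 169 and 171 CPM. The globin genes Hba-a1, Hba-a2, Hbb-bs and Hbb-bt had the largest ratios of this class, for example Hbb-bs at 8018 against 179.9 and 155 CPM. Of their 7333 UMIs in the knockout, 74.1% came from 1 cell and 99.6% from 5 cells, and without the 5 cells of most globin UMIs per library all 4 genes were lower in the knockout (log2 ratios from -3.16 for Hba-a1 to -0.96 for Hba-a2).

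In astrocyte-like cells few endfoot genes were called. Of 17 measured genes 2 were higher, Gpr37l1 (1895 against 1612 and 1502 CPM) and the connexin 43 gene Gja1 (1485 against 1369.5 and 1272 CPM), where 0.795% of all genes were higher, but with the stricter cell filter the log2 ratio of Gja1 was -0.02. The make-up of the class differed too. Of 339 knockout cells and 302 and 278 WT cells, the cluster led by Cldn10 and Gpr37l1 held 185 against 114 and 120. The cluster led by Gria2 and Dclk1 held 68 against 105 and 71, and the part of this make-up in the levels was not tested. The water channel gene Aqp4 measured 900.3 against 928 and 854 CPM. Gfap, the intermediate filament gene of reactive astrocytes, was lower at 269.7 against 407 and 411 CPM, and the other 7 measured genes of the reactive list were not called. Lmcd1 (90.1 against 52.3 and 51.6 CPM), Tmem55a, Enpp5 and the adenosine receptor gene Adora2b (70.9 against 45.1 and 46.5 CPM) were past the fold higher, and Ndufa3 (87.6 against 181 and 143 CPM) was lower. With the stricter filter only 1 gene was past the fold higher in this class.

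The classes were recovered in unequal shares. Endothelial-like cells made up 47.2% of the knockout cells (45.8 to 48.5) and 43.3% and 43.00% of the WT cells. Microglia-like cells made up 22.1% of the knockout cells (20.97 to 23.3) and 26.2% and 26.5% of the WT cells, and a further low-UMI cluster closest to microglia, left unnamed, held 4.23%, 2.51% and 2.23%. For every 100 endothelial-like cells there were smooth muscle-like cells numbering 10.8 (9.42 to 12.2) in the knockout and 14.5 (12.9 to 16.3) and 15.9 (14.1 to 17.8) in the WT libraries, and pericyte-like cells numbering 8.68 (7.51 to 10.00) in the knockout and 10.7 (9.37 to 12.2) and 11.1 (9.70 to 12.7) in the WT libraries. The intervals of the knockout lay apart from both WT intervals for smooth muscle-like cells and overlapped for pericyte-like cells. Choroid plexus-like cells made up 2.24% of the knockout cells (1.86 to 2.69) and 0.505% and 0.490% of the WT cells, or 115 against 27 and 25 cells, and oligodendrocyte-like cells 0.917% of the knockout cells (0.674 to 1.22) and 1.76% and 1.86% of the WT cells.

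Choroid plexus RNA was read in every class of the knockout. Ttr, the transthyretin gene of choroid plexus epithelium, measured 996 against 152 and 97.2 CPM in endothelial-like cells and was found in 99.3% of them, against 62.1% and 51.3% of the WT cells. It stood at 1104 against 142 and 108 CPM in microglia-like cells. Summed over the 9 choroid plexus markers, the levels in endothelial-like cells were 1153 CPM against 241 and 165 (7 of 9 markers higher), and in pericyte-like cells 2747 against 400.5 and 346. Of the 9 markers, Otx2 was at 0 in pericyte-like and smooth muscle-like cells of the knockout. The part of choroid plexus RNA in other differences was not tested. With a minimum of 20 CPM in every class, Ttr and Enpp2 were past the fold higher in all 5. At the minimum of 50 CPM set for the smaller classes, Enpp2 in smooth muscle-like cells (68.95 against 13.2 and 12.5 CPM) is not counted. The only other genes past the fold in 1 direction wherever they reached 20 CPM, over at least 3 classes, were Lama4, Rps27, Rps29 and mt-Nd3, all lower.

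Genes with very short transcripts were lower in all 5 classes of the knockout. In endothelial-like cells the median log2 ratio was -0.59 for the 16 genes whose longest transcript is under 500 bases, -0.18 for the 103 genes from 500 to under 750 bases and between -0.02 and 0.01 for longer ones. For WT 1 against WT 2 the medians of the shortest groups were 0.23 and 0.08, so WT 2 lay between the knockout and WT 1. Among the 80 cytosolic ribosomal protein genes 54 were lower in endothelial-like cells and 4 higher, and all 13 mitochondrially encoded genes were lower. These calls ask for intervals apart from both WT libraries at 20 CPM or more. By the same rule, 549 of the 6049 other genes of 1000 bases or more were lower and 242 higher. Rps28 measured 184 against 434 and 288 CPM and mt-Nd3, a subunit gene of respiratory complex I, 247 against 568 and 409.6 CPM. Leaving out ribosomal and mitochondrial genes and every gene under 1000 bases, the genes past the fold were 14 higher and 16 lower in endothelial-like cells, 18 and 39 in microglia-like, 9 and 31 in smooth muscle-like, 11 and 9 in pericyte-like and 11 and 13 in astrocyte-like cells. The knockout also had the fewest UMIs per cell, and the part of depth in these values was not tested.

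**Figure D5:**
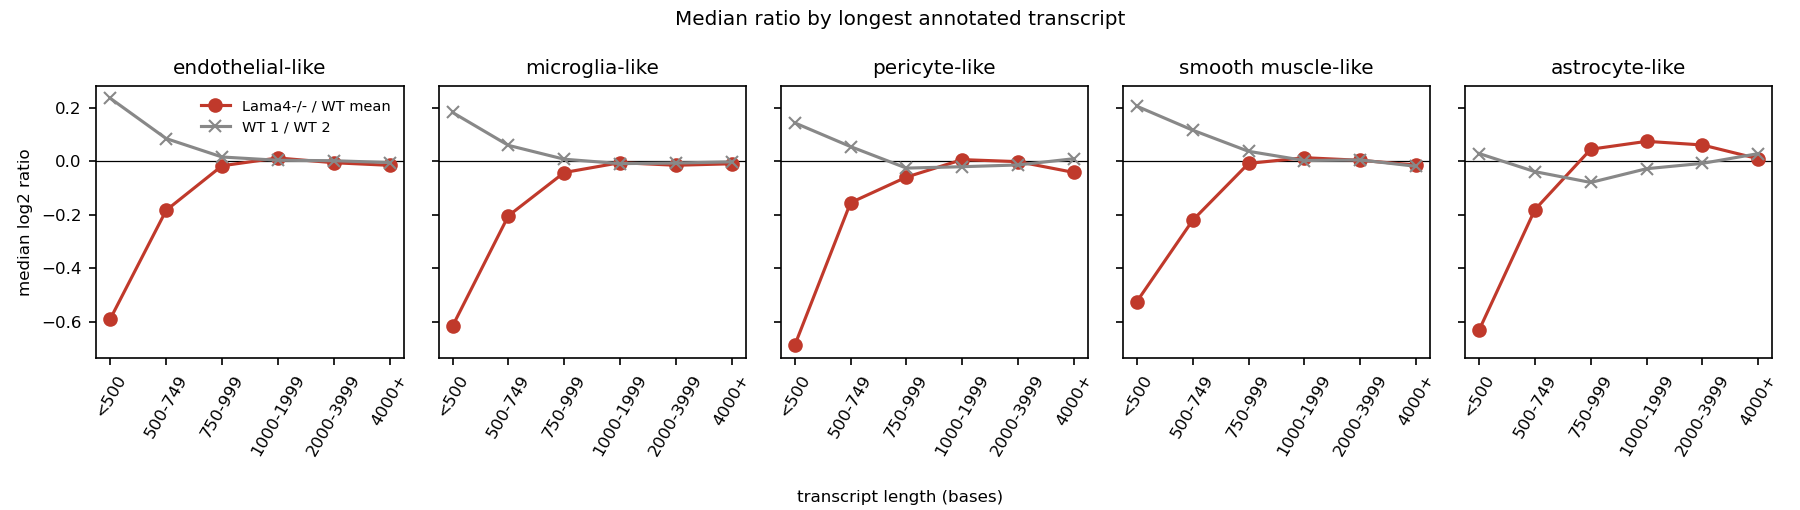
Median log2 ratio of genes grouped by the length of their longest annotated transcript in bases, for the 5 classes, with the knockout against the mean of the WT libraries in red and WT 1 against WT 2 in grey. In endothelial-like cells the knockout median is -0.59 below 500 bases and -0.18 in the next group, and it is close to 0 for longer transcripts.

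Genes around Lama4 on chromosome 10 were compared with the rest of the genome. Of 26 genes within 10 Mb that reached 20 CPM in endothelial-like cells, 0 were past the fold, where 0.764% of all genes were, a rate at which so few genes can show little. Of these 26, 19.2% had a knockout interval apart from both WT intervals, against 14.5% of genes on other chromosomes, and their median absolute log2 ratio was 0.089 against 0.073. In pericyte-like cells the median absolute log2 ratio of 18 such genes was 0.285, against 0.164 on other chromosomes, and 0.178 between the WT libraries for the same genes. Prdm1 in microglia-like cells was the 1 gene of this stretch past the fold, among 19, where 1.5% of all genes were past it, and no such gene was found in the other 3 classes.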

How the data were processed

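Single cells of mouse cortex were profiled with droplet 3′ libraries. The deposited files hold UMI counts per gene and barcode, which the authors made with Cell Ranger 3.1.0 per the file headers. The submitters' processing notes also name Seurat 3.1 and the mm10 build, with no role given. The 3 libraries compared hold between 41628663 and 48314458 UMIs each, and the counts were used as deposited.

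Barcodes with at least 500 genes and under 15% mitochondrial UMIs were kept, and those with the highest doublet scores were removed (0.8% per 1000 barcodes, 706 of 16281). All 7 distinct libraries of the series were clustered together on 2000 variable genes, 30 principal components and 15 neighbours (Leiden resolution 1, leidenalg 0.10.2), and a cluster took a class name from at least 3 markers. Counts were summed per library and class and given as CPM on class totals scaled by TMM (edgeR 4.0.16, R 4.3.3). Values split by cluster or by MHC class II UMIs use unscaled totals. Intervals are 95% exact Poisson intervals for counts and exact binomial intervals for shares (scipy 1.17.1), and cover counting error only. Log2 ratios use a pseudocount of 0.5 CPM. The knockout has 1 distinct library, so no test was run and no p-value is given. The calls were tried on simulated counts with Poisson noise only, which leave out the further spread seen between the WT libraries. There 100% of the 2-fold changes were recovered in endothelial-like, microglia-like and smooth muscle-like cells. In astrocyte-like cells 97% were recovered and in pericyte-like cells 69%. These shares cover counting error alone and do not show how the calls perform with library spread.

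Named genes are the 10 with the largest absolute log2 ratio in each direction past the fold in endothelial-like cells, 6 in microglia-like cells and 4 in the other 3 classes. Possible free RNA, meaning genes that exceeded their own level more than 10 times in some other class of 20 or more cells, was set aside from that choice. Up to 4 members of each of the 27 gene lists, the laminin chains and signs of RNA quality were named as well. Some genes that this rule names are not reported here. Further list members were chosen after their values were seen. The members and lists were chosen with earlier results of these data known. Promoter stretches come from RefSeq (GRCm38.p6). Alternatives varied the WT library, scaling, cell filter, doublets, clustering, pseudocount, level, thinning, list threshold and the window around Lama4. Alternatives without MHC class II cells, without the globin-rich pericytes, with 1 smooth muscle cluster alone, for the list counts and for gene length were chosen after seeing the data.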

Additional observations from a re-analysis of the deposited data

How the results depend on the processing

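No paired analysis was possible because the knockout has 1 distinct library and no result comes from a test. Each alternative was compared with the counts of genes past the fold, which were 14 higher and 35 lower in endothelial-like cells, 19 and 64 in microglia-like, 15 and 25 in pericyte-like, 9 and 41 in smooth muscle-like and 11 and 34 in astrocyte-like cells. Against 1 WT library alone, the endothelial lower count was 42 to 95, the microglial counts 30 to 31 higher and 87 to 133 lower, the pericyte counts 25 to 28 and 56 to 70, the smooth muscle counts 13 to 20 and 60 to 109, and the astrocyte counts 39 to 45 and 83 to 108. A call then has to clear 1 WT library in place of both. The arterial list then had 6 to 12 members higher, with 12 without WT 2, and the capillary median was 0.0018 without WT 1 and -0.046 without WT 2. Without TMM scaling the endothelial lower count was 18 and the capillary median 0.028. With the minimum level lowered to 10 CPM 28 endothelial and 36 microglial genes were higher. With the stricter cell filter 66 smooth muscle genes were lower, 1 astrocyte gene was higher, 4 contractile list genes were higher, the endothelial share of cells differed by 5.84 percentage points in place of 4.03, and Gja1 in astrocyte-like cells turned to -0.024. With doublets kept 21 astrocyte genes and 5 contractile list genes were higher and the capillary median was -0.039. With only the 3 libraries clustered that median was -0.038. Asking for at least 2 list genes moved the difference in the share of endothelial-like cells with venous genes to -3.43 points from -1.48, and it was 0.095 points with the stricter filter and with doublets kept. The venous share does not mark endothelium alone. At 3 and at 2 genes, microglia-like cells of the knockout reached 22.0% and 61.2%, against 26.3% and 47.0% of its endothelial-like cells. Without the MHC class II cells, 1 activation list gene was higher. Without the 5 pericytes of most globin UMIs per library, the ratios turned to -0.96 for Hba-a2, -2.12 for Hbb-bs, -3.16 for Hba-a1 and -1.98 for Hbb-bt. Apart from the construction named for single WT libraries and left-out cells, the cause was not tested. The other 247 summary values stayed within the limits set for each, and 31 moved. Of 1624 alternative values of 158 named gene ratios, 1526 kept their call or lack of one, 61 lost the call, 32 gained one and 5 reversed. Direction was compared only for ratios called in the main setting, so a turn of sign in an uncalled ratio is not counted.

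With 1 knockout library of pooled mice, the genotype, the pool and the library preparation cannot be told apart. The counting intervals do not cover variation between animals, and neither does the WT pair, which comes from 1 pool. In pericyte-like cells, the shallowest of the 5 classes, 69% of 2-fold changes simulated with counting noise only were recovered.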
